A study of Rattus norvegicus with 12 samples.

Results

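Back-splice reads of 5 genes that fold proteins in the endoplasmic reticulum (ER) or sense stress there were followed across 12 rat liver libraries. A back-splice read crosses the join between a later and an earlier site of the same gene, and so marks a circular RNA (circRNA). The genes were Canx, Pdia3, Ero1b, Hsp90b1 and Atf6. They were picked by name, as entries of the deposited circRNA table carrying 1 of these symbols as host gene, together with entries written under an Ensembl identifier that shared their transcript or junction. This gave 37 junctions, 35 under a symbol and 2 under an identifier, of 21068 junctions in all. The 5 genes were among 6120 hosts, and they held 751 of 284534 reads (0.264%).

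All 12 libraries came from wild-type Wistar rats with induced diabetes. The rats had eaten a high-fat diet (60% of calories as fat) for 4 weeks and had then received streptozotocin, which destroys pancreatic beta cells, once at 35 mg/kg after a 16 h fast. Animals whose fasting glucose exceeded 16.7 mmol/L entered the study. The groups were sham operation (SHAM, 5 libraries), sleeve gastrectomy, which removes much of the stomach, sampled at 3 months (SG, 5 libraries), and diabetes that had returned after sleeve gastrectomy (re_DM, called relapse here, 2 libraries). The sources used here do not give age, sex, feeding state or when sham and relapse rats were sampled, and there was no group without diabetes. The labels do not tie each library to its own animal, so p-values measure only the spread between these samples, which may be technical. RNA had been depleted of ribosomal RNA and treated with RNase R, an enzyme that digests linear RNA. The values therefore describe circular products and say nothing of the linear mRNA or the protein.

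The libraries held between 18176 and 37229 back-splice reads, with relapse 1 at 18473 and relapse 2 at 37229. Levels are given as reads-per-million (RPM) of all back-splice reads of the library, so that 1 read was worth 26.9 to 55.0 RPM. A count of 0 allowed up to 27.5 RPM over the sham group, 25.05 over the sleeve group and 53.9 over the relapse group (3 reads, counting error only). The tissue label was checked against hepatocyte markers: 13 of 16 had back-splice reads, led by Cps1, Tf and C3, with Apoa1, Ttr and Ahsg at 0. Their summed level was 12385 to 19751 RPM in sham, 13659.6 to 16682 in sleeve and 13046 to 13377 in relapse libraries. Of markers of other cells, endothelial ones had 167 reads (275 to 917 RPM across libraries), Kupffer cell markers 64 (0 to 786 RPM), lymphocyte markers 60 (0 to 651 RPM), stellate cell markers 31 (0 to 246 RPM) and gut markers 3. Reads were found for 4 of 7 endothelial, 2 of 8 Kupffer cell, 2 of 7 lymphocyte and 4 of 8 stellate cell markers. Most fell on 1 gene of each list: Flt1 (141), Adgre1 (57), Ikzf1 (59) and Reln (25). The 6 pancreatic and 6 cholangiocyte markers had no read. The summed levels of each list overlapped between sham and sleeve libraries. Those of relapse overlapped with both groups, except that the hepatocyte sum of both relapse libraries lay below all sleeve libraries. The part of these levels in the results was not tested. In whole liver, fewer cells of a type and less RNA per cell cannot be told apart.

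Secreted and membrane proteins enter the ER unfolded. Calnexin, the product of Canx, is a membrane-bound lectin that holds glycoproteins while their sugars are trimmed, and Pdia3 (ERp57) works beside it to form and reshuffle disulfide bonds. Ero1b is an oxidase that passes oxidising power to the disulfide isomerases, and Hsp90b1 (GRP94) is the HSP90 chaperone of the ER lumen. When unfolded proteins build up, ATF6 leaves the ER membrane for the Golgi, is cut there, and its free part acts in the nucleus on promoters of chaperone genes. The liver makes most plasma proteins and has a large secretory ER.

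The promoters of 3 of the 5 hosts are shown, those that had a window among the promoters searched. All 3 carry the element through which the sensor is known to act on chaperone genes. The ER stress response element, which ATF6 binds together with the CCAAT factor NF-Y, was searched as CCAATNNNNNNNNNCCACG on both strands, that is, also as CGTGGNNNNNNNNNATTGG, in RefSeq promoter windows of the build GRCr8 (250 bases before to 50 bases after each gene start). Such an element was found in 22 of 33469 windows (0.0657%). Canx, Hsp90b1 and Ero1b were in the promoter table and each held it, and Hsp90b1 held it at 2 places that do not overlap. Of the 101 genes of ER folding and stress lists with a window, 8 held it; the others were Calr, Derl3, Dnajc3, Hspa5 and Xbp1. The matches are shown in capitals within 80 bases read along the gene's strand; a match is a description of these letters and not a measured binding site. The element began 230 bases before the start of Canx, 224 before that of Ero1b, and 176 and 72 before that of Hsp90b1. The windows were chr10:35158028-35158107 (minus strand) for Canx, chr17:92941438-92941517 (plus strand) for Ero1b, and chr7:23012410-23012489 and chr7:23012306-23012385 (minus strand) for Hsp90b1.
Canx: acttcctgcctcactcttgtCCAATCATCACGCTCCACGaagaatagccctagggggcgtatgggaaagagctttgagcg
Ero1b: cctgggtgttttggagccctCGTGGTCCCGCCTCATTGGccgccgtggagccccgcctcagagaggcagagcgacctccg
Hsp90b1, distal: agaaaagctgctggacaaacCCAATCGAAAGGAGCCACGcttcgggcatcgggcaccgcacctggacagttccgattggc
Hsp90b1, proximal: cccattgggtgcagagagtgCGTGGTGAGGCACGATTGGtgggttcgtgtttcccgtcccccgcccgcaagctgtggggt
In Canx and the distal Hsp90b1 match the element lies on the gene's strand, and in Ero1b and the proximal Hsp90b1 match on the opposite one.

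The hosts differed widely in level. Canx had 545 reads and ranked 70 among 6120 hosts by reads, Atf6 had 111 (rank 465), Pdia3 52 (rank 922), Ero1b 30 (rank 1348) and Hsp90b1 13 (rank 2117). Averaged over the 12 libraries, this was 1931 RPM for Canx, 395 for Atf6, 162 for Pdia3, 108 for Ero1b and 55.2 for Hsp90b1, without division by length, so that the order is one of back-splice reads and not of transcripts. The Canx range, 1343 to 2650.05 RPM, lay above every library of the other 4 hosts, while the ranges of those 4 overlapped. Canx and Atf6 had reads in all 12 libraries, Pdia3 and Ero1b in 10 and Hsp90b1 in 3. Of the 37 junctions, 4 had at least 20 reads and held 599 of the 751 reads. These 4 were also the members read in all 12 libraries. A further 17 (45.9%) were seen in 1 library, against 60.2% of all junctions.

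**Figure D1:**
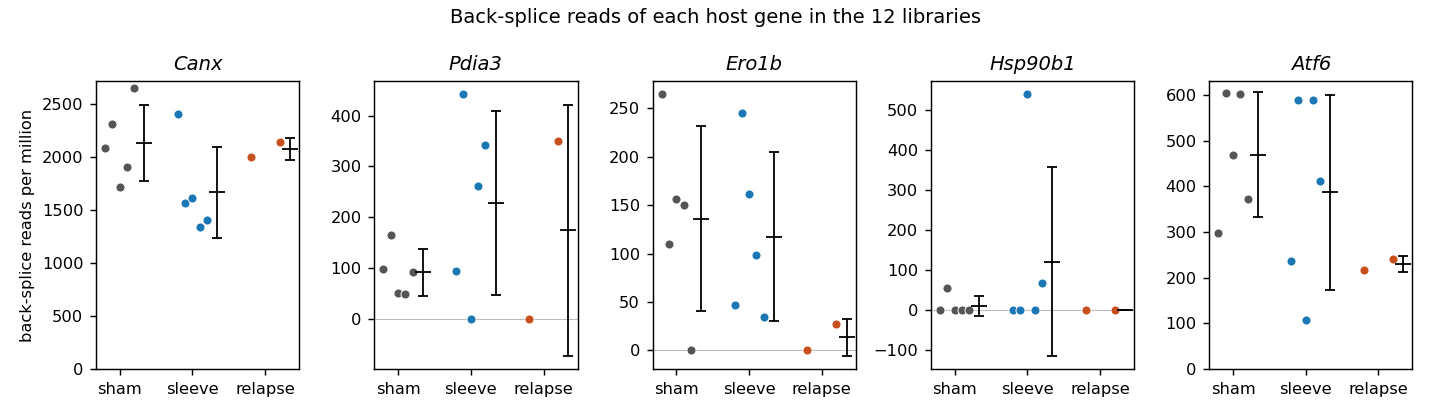
Back-splice reads-per-million (vertical axis, linear, a separate scale for each gene) of Canx, Pdia3, Ero1b, Hsp90b1 and Atf6 in sham (5), sleeve (5) and relapse (2) libraries; each point is a library, and the bar to its right is the mean with 1 SD. Canx lies between 1343 and 2650.05 RPM in every library, whereas Hsp90b1 is above 0 in 3 libraries and at 539 RPM in 1 of them.

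Canx, the lectin chaperone, gave 2085, 2311, 1718, 1905 and 2650.05 RPM in sham libraries 1 to 5. The sleeve libraries 1 to 5 gave 2410.1, 1572, 1618, 1343 and 1404 RPM, and the relapse libraries 2003 and 2149 RPM. Sleeve libraries 2 to 5 lay below every sham and every relapse library, but sleeve 1 lay above 4 of the 5 sham libraries, so that the groups overlapped. The means were 2134 ± 362 (SD, n = 5) in sham, 1670 ± 429 (SD, n = 5) in sleeve and 2076 ± 103 (SD, n = 2) in relapse.

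The test for all hosts was edgeR's quasi-likelihood test with Benjamini-Hochberg adjustment over the 1333 hosts that passed a filter on low counts; Canx, Pdia3, Ero1b and Atf6 passed and Hsp90b1 did not. Canx did not pass the false discovery rate (FDR) of 0.05 in any comparison. In sleeve against sham its log2 fold change was −0.34 ± 0.26 (SE; 95% interval −0.86 to 0.17; edgeR adjusted p = 0.994). In relapse against sleeve it was 0.34 ± 0.33 (95% interval −0.33 to 1.0015; edgeR adjusted p = 0.996), and in relapse against sham −0.01 ± 0.34 (95% interval −0.68 to 0.67; edgeR adjusted p = 0.997). The intervals leave room for changes in either direction. With 1 library left out, the sleeve against sham log2 fold change ran from −0.53 (without sleeve 1) to −0.27 (without sham 5). Without sleeve 1 it still did not pass (edgeR adjusted p = 0.998, unadjusted 0.0601). The remaining sleeve libraries reached at most 1618 RPM and lay below sham. This split leaves out the 1 sleeve library that overlapped with sham. The share of all hosts without overlap in such a split was not computed.

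Over all members, 0 of the 4 tested hosts passed in any of the 3 comparisons. Among all 1333 tested hosts, 0.15% were called in sleeve against sham, 0.075% in relapse against sleeve and 0.225% in relapse against sham. By unadjusted p under 0.05, also 0 of the 4 were called, where 3.6%, 4.35% and 5.85% of all tested hosts were. DESeq2 and limma-voom called 0 of the 4 as well. The comparisons share their sham, sleeve and relapse libraries and are not independent of one another.

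Canx had 12 junctions, 11 exonic and 1 within an intron, and 3 of them carried nearly all of its reads. CircRNA324 joined exon 7 back to exon 2 (chr10:35815477-35819778, minus strand, Rnor_6.0, 6 exons) with 219 reads. CircRNA325 joined exon 6 to exon 5 (chr10:35816391-35817012, 2 exons) with 180 reads, and circRNA326 joined exon 6 to exon 4 (chr10:35816391-35818308, 3 exons) with 120 reads. Exon numbers are those the deposited table gives for its Canx transcript. The last 2 circles end at the same donor and differ by exon 4, which is 58 nt long. The donor of exon 6 was used by 3 junctions and 302 reads (55.4% of Canx reads) and that of exon 7 by 2 junctions and 221 reads (40.6%). On the acceptor side, exon 2 took 233 reads (42.8%), exon 5 180 (33.0%) and exon 4 122 (22.4%). The other 9 junctions held 1 to 6 reads each, and 6 of the 12 were seen in 1 library.

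**Figure D2:**
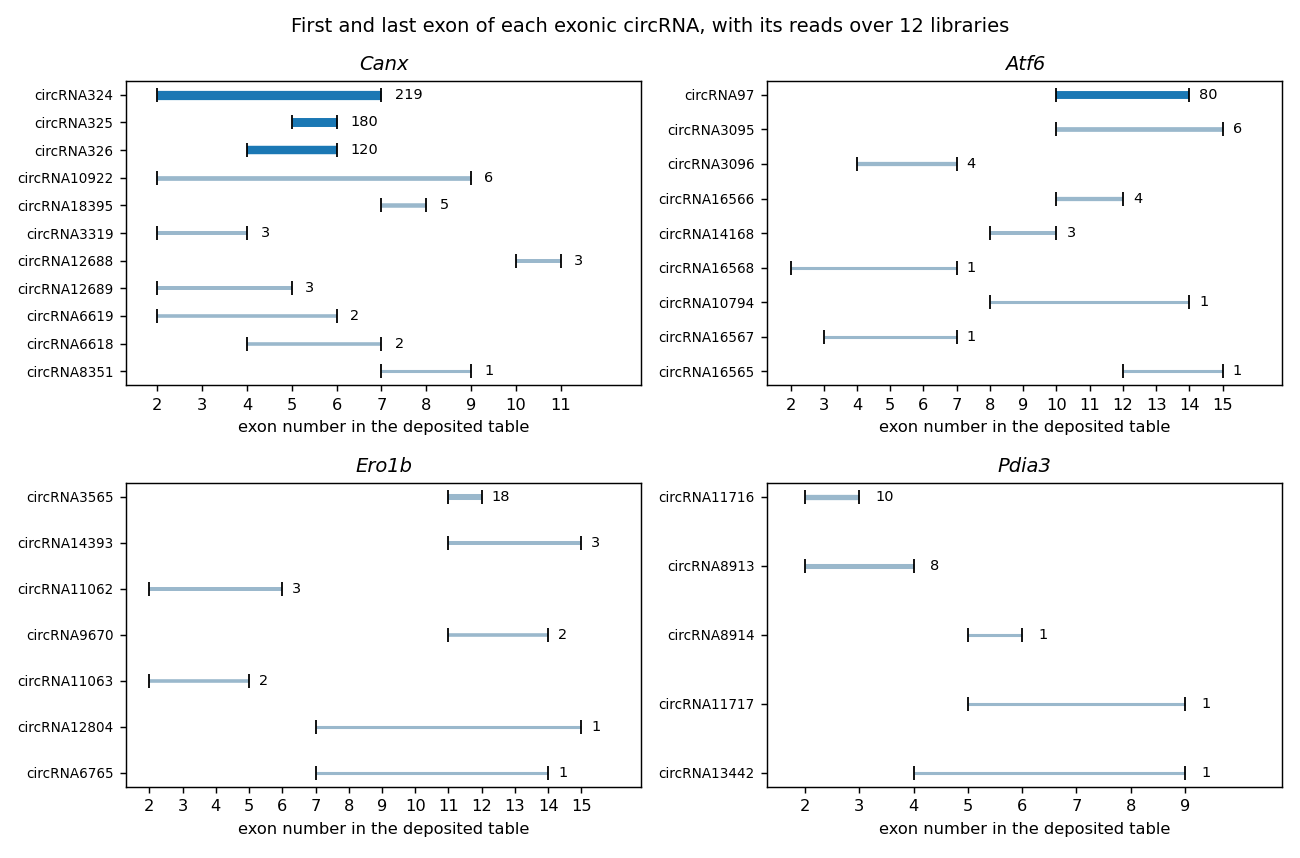
Exonic circRNAs of Canx, Atf6, Ero1b and Pdia3 whose table entry gives exon numbers: each line runs from the first to the last exon of a circle (horizontal axis, exon number), its thickness grows with the log of its reads, and the number at its right is its reads over the 12 libraries; dark lines mark circles with at least 20 reads. In Canx 219, 180 and 120 reads fall on 3 circles within exons 2 to 7, and in Atf6 80 reads fall on exons 10 to 14.

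CircRNA324 was read 29, 17, 16, 17 and 18 times in sham libraries 1 to 5, 22, 18, 14, 13 and 15 times in the sleeve libraries, and 10 and 30 times in the relapse libraries. Its level was 883 ± 59.6 RPM in sham (range 833 to 960), 724 ± 255 in sleeve (426 to 1040) and 674 ± 187 in relapse (541 and 806; SD, n = 5, 5 and 2). Both relapse libraries lay below all sham libraries, which were close to one another, while the sleeve libraries covered the range of both. The log2 fold changes were −0.30 ± 0.35 for sleeve against sham, −0.04 ± 0.46 for relapse against sleeve and −0.34 ± 0.46 for relapse against sham (SE), with an edgeR adjusted p of at least 0.974.

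CircRNA325 was read 17, 10, 8, 16 and 22 times in sham, 18, 8, 10, 20 and 13 times in sleeve, and 10 and 28 times in relapse libraries. This was 671 ± 241, 577 ± 183 and 647 ± 149 RPM (SD, n = 5, 5 and 2), and the 3 groups overlapped. Its log2 fold changes were −0.19 ± 0.39, 0.19 ± 0.50 and −0.00 ± 0.52 in the same order (SE, edgeR adjusted p at least 0.996).

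CircRNA326 was read 12, 14, 8, 4 and 11 times in sham, 8, 5, 6, 7 and 9 times in sleeve, and 17 and 19 times in relapse libraries. The levels were 459 ± 207 RPM in sham (201 to 770.2), 297 ± 60.4 in sleeve (229 to 378) and 715 ± 290 in relapse (920.3 and 510.4; SD, n = 5, 5 and 2). Both relapse libraries lay above all 5 sleeve libraries, whereas sham overlapped with both groups. The log2 fold change of relapse against sleeve was 1.22 ± 0.59 (SE; 95% interval 0.01 to 2.42), with an unadjusted edgeR p of 0.0474 and an edgeR adjusted p of 0.9995 over 1519 junctions. It was −0.60 ± 0.49 in sleeve against sham (edgeR adjusted p = 0.996) and 0.62 ± 0.59 in relapse against sham (edgeR adjusted p = 0.954). Without relapse 1 the relapse against sleeve log2 fold change was 0.85 (edgeR adjusted p = 1, unadjusted 0.311), and without relapse 2 it was 1.40 (edgeR adjusted p = 0.664, unadjusted 0.0793).

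Among the 4 member junctions tested (these 3 and circRNA97 of Atf6), 0 passed the FDR of 0.05 in any comparison, and 0% of the 1519 tested junctions did in each; limma-voom and DESeq2 called none of the 1519 either. Unadjusted edgeR p under 0.05 was met by 1 of the 4, circRNA326 in relapse against sleeve. Over all 1519 it was met by 59 (3.88%) in sleeve against sham, 73 (4.81%) in relapse against sleeve and 88 (5.79%) in relapse against sham. Groups without overlap were found for 0 of the 4 in sleeve against sham, where 0.987% of all tested junctions had none. They were found for 1 of the 4 in relapse against sleeve (circRNA326; 9.22% of all) and for 1 of the 4 in relapse against sham (circRNA324; 11.5% of all).

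The share of circRNA326 among the reads of circRNA325 and circRNA326 compares 2 circles that end at the exon 6 donor, from exon 4 and from exon 5. It is a share of reads, and how often each circle formed or how long it lasted was not tested. It was 41.4%, 58.3%, 50%, 20% and 33.3% in sham libraries 1 to 5, from 16 to 33 reads each. In sleeve libraries 1 to 5 it was 30.8%, 38.5%, 37.5%, 25.9% and 40.9%, from 13 to 27 reads. Relapse 1 stood at 63.0% (27 reads) and relapse 2 at 40.4% (47 reads), so that relapse 1 was above every other library and relapse 2 was within the range of both other groups. The means were 40.6 ± 14.8% in sham, 34.7 ± 6.18% in sleeve and 51.7 ± 15.9% in relapse (SD, n = 5, 5 and 2); the groups overlapped, and the difference was not tested.

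**Figure D3:**
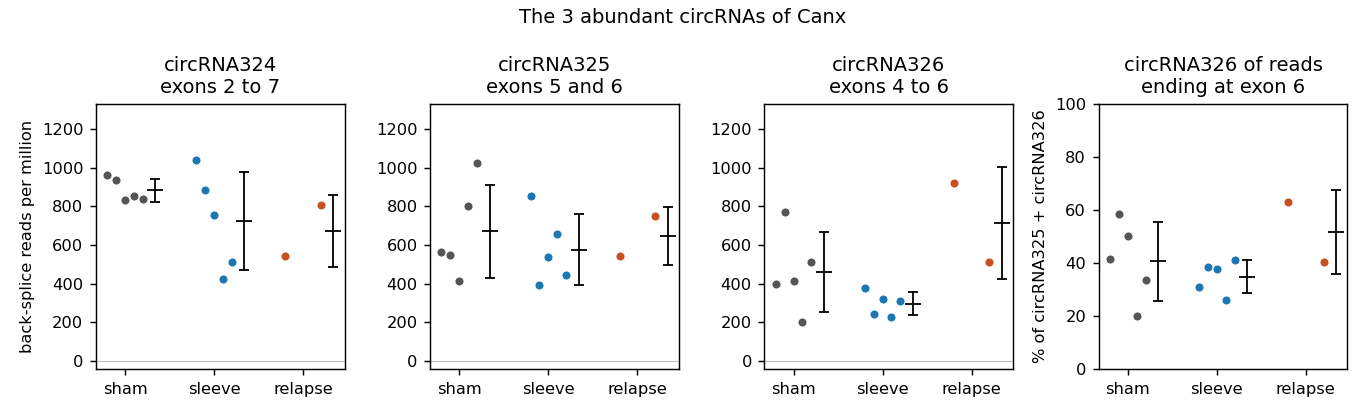
Left 3 panels: reads-per-million of circRNA324, circRNA325 and circRNA326 of Canx on 1 common linear scale; right panel: circRNA326 as a percentage of circRNA325 plus circRNA326 reads; points are libraries, and bars are the group mean with 1 SD (n = 5, 5 and 2). CircRNA326 lies at 229 to 378 RPM in the sleeve libraries and at 510.4 and 920.3 RPM in relapse.

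Pdia3, the oxidoreductase that partners calnexin, was read 3, 3, 1, 1 and 2 times in sham libraries 1 to 5, 2, 9, 0, 8 and 10 times in sleeve libraries, and 0 and 13 times in relapse libraries. Sleeve libraries 2, 4 and 5 and relapse 2 were higher than all sham libraries, and sleeve 3 and relapse 1 had no read. The levels were 91.9 ± 46.7 RPM in sham, 228 ± 180.2 in sleeve and 175 ± 247 in relapse (SD, n = 5, 5 and 2). The log2 fold change was 1.32 ± 0.95 in sleeve against sham (SE; 95% interval −0.58 to 3.22; edgeR adjusted p = 0.994). Relapse gave −0.24 ± 1.17 against sleeve (edgeR adjusted p = 0.996) and 1.08 ± 1.18 against sham (edgeR adjusted p = 0.986), and all its reads came from the deeper relapse 2. Without that library relapse had no Pdia3 read, and its floor of 162 RPM lay above the pooled sham level of 91.7 RPM, so that no fold against sham can be given. The sleeve against sham value also rested on the join of circRNA5915, an entry written under an identifier: with symbol entries alone it was 2.17, still without a call (edgeR adjusted p = 0.997).

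None of the 7 Pdia3 junctions reached 20 reads. The most read was an intronic circle, ciRNA449 (chr3:113399128-113399483, plus strand, Rnor_6.0), with 18 reads: 1, 0, 1, 0 and 0 in sham, 2, 4, 0, 2 and 0 in sleeve, and 0 and 8 in relapse libraries. As background, intronic circles of this kind usually come from intron lariats, not from back-splicing between exons. Of the 6 exonic circles, 3 began at the acceptor of exon 2 and held 31 reads (59.6% of Pdia3 reads). They ended at exon 3 (circRNA11716, 10 reads), at exon 4 (circRNA8913, 8 reads) and, in circRNA5915, an identifier entry with 4 exons, at position 113392511 (13 reads). CircRNA8913 was read 4 times in each of 2 sleeve libraries and in no other, and 6 of the 10 reads of circRNA11716 came from sleeve 5. The last 3 exonic circles had 1 read each.

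Ero1b, the oxidase, was read 8, 2, 3, 3 and 0 times in sham libraries, 1, 5, 3, 3 and 1 times in sleeve libraries, and 0 and 1 times in relapse libraries 1 and 2. Every sleeve library held a read, and the relapse group had 1 read in all. The levels were 136 ± 95.4 RPM in sham, 117 ± 87.5 in sleeve and 13.4 ± 18.99 in relapse (SD, n = 5, 5 and 2). The relapse libraries (0 and 26.9 RPM) lay below all sleeve libraries (34.2 to 246), and overlapped with sham through sham 5, which had no read. The 26.9 RPM of relapse 2 and the 34.2 RPM of sleeve 5 were 1 read each, in libraries of 37229 and 29205 reads. Their order therefore came from depth alone, and the 0 of relapse 1 allowed up to 162 RPM. With 1 read in relapse, the ratio of pooled levels was 6.05 for sleeve over relapse (95% exact binomial interval 0.908 to 257) and 8.17 for sham over relapse (1.27 to 343); the intervals cover counting error alone and leave out the spread between libraries. The log2 fold changes were −0.25 ± 1.19 for sleeve against sham (edgeR adjusted p = 0.994), −2.44 ± 1.94 for relapse against sleeve (edgeR adjusted p = 0.996) and −2.69 ± 1.95 for relapse against sham (edgeR adjusted p = 0.940; SE). None passed the test. Without relapse 1 the relapse values were −1.82 and −2.11, from the 1 read of relapse 2; without relapse 2 the group had no read, with a floor of 162 RPM above the pooled sleeve level (109 RPM) and sham level (147 RPM), and no fold can be given.

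The 7 Ero1b circles were all exonic. CircRNA3565, which joins exon 12 to exon 11 (chr17:90719502-90719975, minus strand, Rnor_6.0), held 18 of the 30 reads: 6, 2, 2, 0 and 0 in sham, 0, 5, 2, 0 and 0 in sleeve, and 0 and 1 in relapse. The acceptor of exon 11 was shared by 3 circles with 23 reads (76.7%), which ended at exons 12, 14 and 15. A second acceptor, exon 2, was used by 2 circles with 5 reads.

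Hsp90b1, the HSP90 of the ER, was read as 1 intronic circle and no exonic one under the rule. CiRNA1154 (chr7:27238396-27238823, minus strand, Rnor_6.0) had 1 read in sham 2, 10 reads in sleeve 3, 2 reads in sleeve 5 and none in the other 9 libraries. Sleeve 3 therefore gave 10 of 13 reads, 539 RPM, against 68.5 RPM in sleeve 5 and 55.0 RPM in sham 2. The levels were 11.003 ± 24.6 RPM in sham and 122 ± 235 in sleeve (SD, n = 5 each), and the relapse group was at 0, which allows up to 53.9 RPM. The ratio of sleeve over sham was 10.9 by pooled reads (95% exact binomial interval 1.62 to 467, counting error only). Fitted without the filter on low counts, its log2 fold change was 2.99 ± 1.53 (SE; edgeR adjusted p = 0.547 over 6120 hosts). The relapse floor of 53.9 RPM (3 reads) lay 1.86-fold below the pooled sleeve level of 100.2 RPM. That fold leaves out the counting error of the sleeve reads. The unfiltered log2 fold change of relapse against sleeve was −4.48 (95% interval −9.10 to 0.14, edgeR adjusted p = 0.755). It is a fit to 0 relapse reads and not a measured fold. Without sleeve 3 the sleeve group had 2 reads (19.8 RPM), under its own floor of 29.6 RPM, and no fold can then be given. Another circle of 4 reads, all in sham 2, was tied to Hsp90b1 by its gene record alone, and is not among the 37. Counted in, it makes 12 reads in sleeve against 5 in sham, and the ratio falls to 2.19 (95% exact binomial interval 0.717 to 7.92).

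Atf6, the stress sensor, was read 9, 11, 9, 12 and 8 times in sham libraries, 5, 12, 2, 18 and 12 times in sleeve libraries, and 4 and 9 times in relapse libraries. The level was 469 ± 137 RPM in sham (298 to 605), 387 ± 214 in sleeve (108 to 589.8) and 229 ± 17.8 in relapse (217 and 242; SD, n = 5, 5 and 2). Both relapse libraries were below all sham libraries, while the sleeve libraries spread over both ranges. The log2 fold changes were −0.20 ± 0.51 in sleeve against sham (edgeR adjusted p = 0.994), −0.75 ± 0.72 in relapse against sleeve (edgeR adjusted p = 0.996) and −0.95 ± 0.72 in relapse against sham (SE; 95% interval −2.39 to 0.49; edgeR adjusted p = 0.940). In each single leave-out of a sham or relapse library the last value stayed between −1.18 and −0.84, with no call. The Atf6 values for the comparisons with the sleeve group also rested on the join of circRNA9244, an entry written under an identifier. With symbol entries alone, Atf6 was −0.55 in sleeve against sham and −0.42 in relapse against sleeve, still without a call. Over the 4 tested hosts, groups without overlap occurred for 0 in sleeve against sham (0.825% of all tested hosts). They occurred for 1 in relapse against sleeve (Ero1b, 10.4% of all) and 1 in relapse against sham (Atf6, 10.1% of all). For Ero1b this rested on 1 read in relapse 2 beside 1 read in sleeve 5, at unlike depth.

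Atf6 had 10 exonic junctions, and circRNA97 held 80 of its 111 reads (72.1%). It joins exon 14 back to exon 10 (chr13:89163768-89176307, minus strand, Rnor_6.0, 5 exons). CircRNA97 was read 5, 11, 3, 11 and 8 times in sham, 4, 2, 2, 12 and 12 times in sleeve, and 4 and 6 times in relapse libraries. Sleeve libraries 4 and 5 stood with the higher sham libraries, and sleeve 1, 2 and 3 with the lower ones and with relapse. The levels were 370.1 ± 209.7 RPM, 240 ± 152 and 189 ± 39.2 (SD, n = 5, 5 and 2), with log2 fold changes of −0.49 ± 0.64 for sleeve against sham, −0.45 ± 0.89 for relapse against sleeve and −0.93 ± 0.90 for relapse against sham (SE; edgeR adjusted p at least 0.954). The acceptor of exon 10 took 90 reads (81.1%) and the donor of exon 14 took 81 (73.0%). Of the other 9 junctions, with 1 to 10 reads each, the most read was circRNA9244, an identifier entry (chr13:89193898-89211609): 9 of its 10 reads came from sleeve 2 and 1 from sleeve 4.

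The wider machinery of the ER was covered by 7 lists of 121 genes, the 5 members included. Back-splice reads were found for 75 of them, and 26 hosts (22 besides the members) passed the filter on low counts. In each of the 3 comparisons 0 rose and 0 fell at an FDR of 0.05 by edgeR, and 0 had an unadjusted edgeR p under 0.05; the shares among all tested hosts are those given above. The median log2 fold change of the 22 was −0.15 in sleeve against sham, −0.01 in relapse against sleeve and −0.19 in relapse against sham, beside 0.03, −0.01 and 0.01 over all tested hosts.

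Among lectin chaperones and glycan trimming, 2 of 9 genes were tested, Canx and Uggt1, which re-tags unfolded glycoproteins for calnexin; Uggt1 had 87 reads and a log2 fold change of −0.14 ± 0.59 in sleeve against sham (SE). In disulfide bond formation, 5 of 17 were tested. Txndc11 had 697 reads and −0.04 ± 0.25 in sleeve against sham; the disulfide isomerase Pdia5 (48 reads) gave −0.75 ± 0.91, and Erp44, which retains ERO1 enzymes in the early secretory pathway, gave 0.82 ± 1.05 (39 reads). A list of 20 genes held HSP70 and HSP90 chaperones, their cofactors and prolyl isomerases, and 2 were tested. The isomerase Fkbp11 gave −0.44 ± 0.67 (77 reads), and Sil1, an exchange factor of the ER HSP70, −0.17 ± 0.93 (47 reads).

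Of 20 sensors and transcription factors of the unfolded protein response, 6 were tested. Ern1, which encodes the sensor IRE1, had 565 reads, at 2204 ± 480 RPM in sham, 1952 ± 137 in sleeve and 1889 ± 544 in relapse (SD, n = 5, 5 and 2). Its log2 fold change was −0.14 ± 0.25 in sleeve against sham and −0.21 ± 0.34 in relapse against sham (SE). Creb3l3, a liver-enriched relative of ATF6 that is also released from the ER membrane by cleavage, gave −0.01 ± 0.42 in sleeve against sham (159 reads). Creb3l2 gave 0.32 ± 0.59 in sleeve against sham and −1.28 ± 0.87 in relapse against sleeve (94 reads). None passed the test.

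In the degradation of misfolded proteins, 4 of 25 were tested: Edem1, which extracts misfolded glycoproteins from the calnexin cycle, gave 0.52 ± 0.40 in sleeve against sham (192 reads), the ubiquitin ligase Marchf6 −0.83 ± 0.85 (56 reads) and the ubiquitin-conjugating enzyme Ube2j2 1.52 ± 0.95 (47 reads). In translocation and glycan transfer, 4 of 20 were tested: Srp68, a subunit of the signal recognition particle, gave 0.57 ± 0.38 (205 reads), Stt3b, a catalytic subunit of the oligosaccharyltransferase, −0.32 ± 0.66 (76 reads), and Sec63 −0.36 ± 0.74 (69 reads). Of 10 genes of ER calcium and ER turnover, 3 were tested. Itpr2, a calcium release channel, gave −0.26 ± 0.35 in sleeve against sham and 0.68 ± 0.44 in relapse against sleeve (269 reads). In the same order Atl3 gave −0.42 ± 0.68 and 0.64 ± 0.85 (77 reads). The calcium pump Atp2a2 gave −0.26 ± 0.66 and 0.07 ± 0.89 (75 reads). None of these passed the test.

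**Figure D4:**
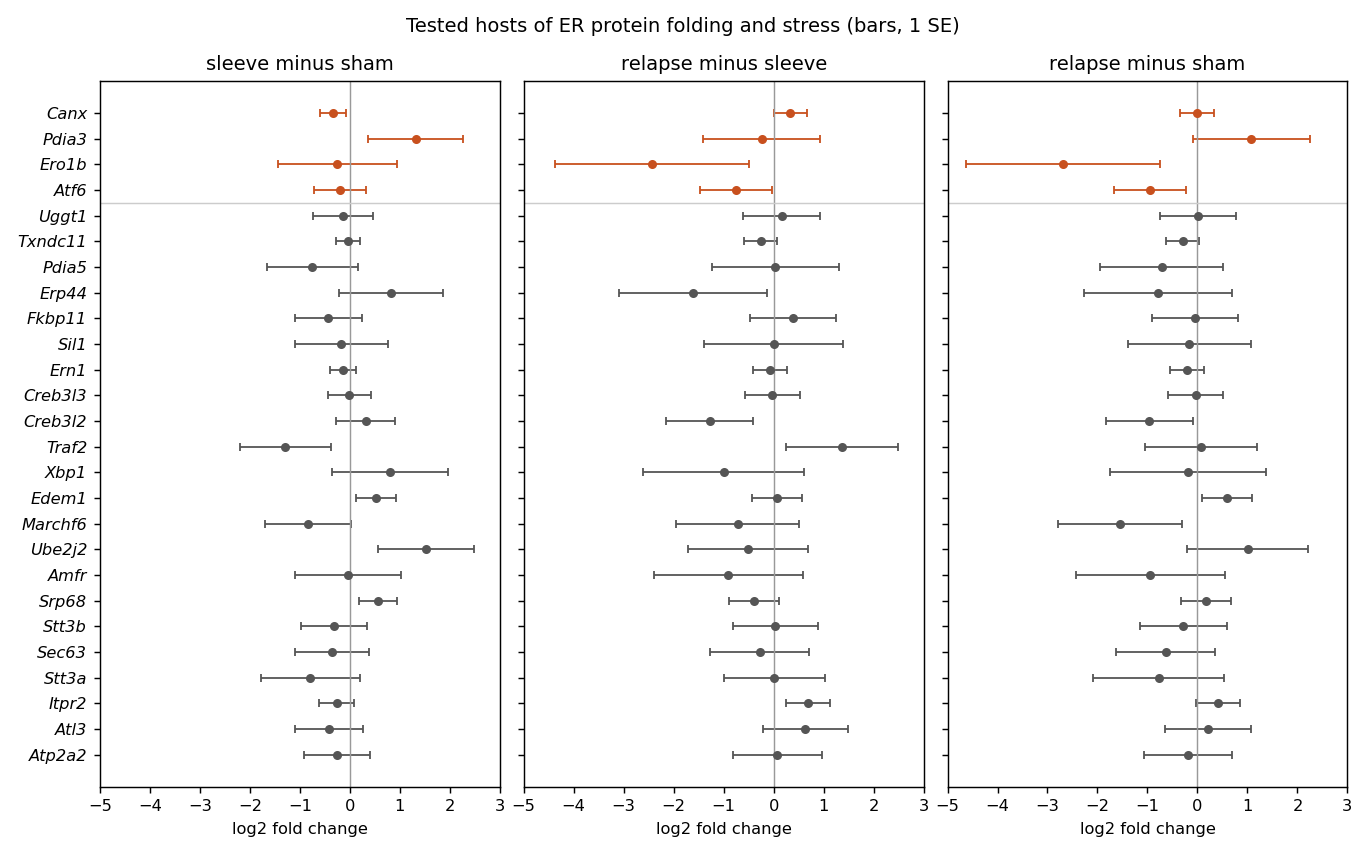
Log2 fold change (horizontal axis, point) with 1 SE (bar) of the 4 tested members (orange, above the line) and the 22 other tested hosts of the 7 lists (grey) for sleeve against sham, relapse against sleeve and relapse against sham. None passed an FDR of 0.05; the widest bars belong to hosts with few reads, such as Ero1b at −2.44 and −2.69 in the relapse comparisons.

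How alike the members were across libraries is given as a description. Pearson's r of log2 counts-per-million over the 12 libraries, which share the 3 groups and their depths, ran from −0.39 for Canx with Ero1b to 0.52 for Pdia3 with Atf6, with 0.26 for Ero1b with Atf6. Among the other 1332 tested hosts, those most like Canx were Ppp6r3 (r = 0.84), Xylb and Sipa1l1 (0.77 each). Most like Pdia3 were Nfatc1 (0.93), Psd3 (0.81) and Armh3 (0.78). Most like Ero1b were Aldh1l2 (0.82), Vps13d and C4bpa (0.76 each), and most like Atf6 were Zmynd8 (0.86), Smad2 and Zranb1 (0.79 each). None of these 12 is on the 7 lists. The values are the highest of 1332 over 12 libraries and many rest on hosts of few reads (22 for C4bpa, 40 for Nfatc1, 44 for Sipa1l1), so they are descriptions with no test.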

How the data were processed

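Per the labels' protocols, liver RNA was ribosome-depleted, treated with RNase R and sequenced as paired ends from strand-marked libraries. The submitters' processing notes name cutadapt 1.9, FastQC, TopHat2 2.0.10 and the build Rnor_6.0; the caller of back-splice reads is not given in the sources used here. The authors deposited a whole-number count of reads per circRNA and library, and beside it a score, SRPBM, which within a library was the count times 1 constant; its definition is not given, and it entered 1 alternative only. All 12 libraries were used.

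The table held 21876 entries, 18175 under a gene symbol and 3701 under an identifier. Entries of the same junction were summed (808 junctions had an entry of each kind, none of them a member), and 1350 of 1696 identifiers were joined to symbols by shared transcript or junction, giving 6120 hosts. Among values above 0, 38.1% in symbol entries and 1.68% in identifier entries were a single read; how the 2 kinds were counted is not given. Coordinates of circles are Rnor_6.0, counted from 1; deposited starts are 1 lower. Promoter windows are RefSeq, GRCr8, and were not converted. Pdia3 and Atf6 had no window among those searched, so their promoters were not used here. Back-splice junction sequences were not used either.

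Counts were tested with edgeR 4.0.16 in R 4.3.3 (TMM, a mean for each of the 3 groups over all 12 libraries, robust quasi-likelihood; filterByExpr, min.count 5 and min.total.count 15), with adjustment over all 1333 hosts or 1519 junctions. The standard error is the log2 fold change over the square root of F. Intervals use a confidence level of 95%. The intervals of pooled read ratios and the floors (3 reads) cover counting error only, since reads without molecular identifiers are not independent molecules. On data simulated for sleeve against sham with 1333 hosts, the procedure called 2.5% of 200 hosts changed 2-fold and 52.0% of 200 changed 4-fold. Alternatives were DESeq2 1.42.0, limma-voom 3.58.1, other scalings, filters and joins, a replicate block and leaving out each library. Replicate numbers in the labels did not pair libraries.

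The members and lists were chosen with earlier results of these data known. All 5 hosts are named throughout; junctions with at least 20 reads are given in full, with the most read junction of a gene that has none; on the lists, hosts past the FDR of 0.05 (none) and the 3 tested non-members with most reads in each list; and for likeness the 3 hosts with the highest r. CircRNA11716, circRNA8913, circRNA5915 and circRNA9244 were named after their values were seen. For hosts of the lists, no rule set which comparison is given.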

Additional observations from a re-analysis of the deposited data

Results flagged for a closer look

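Within groups of 5 libraries, the gap between the extreme library and its nearest neighbour was compared with the range of the group, using Dixon's 95% critical value of 0.710. Of 24 groups examined, 5 exceeded it; chance gives about 1 in 20. Canx in sleeve library 1, at 2410.1 RPM, stood above the other 4 sleeve libraries (1343 to 1618 RPM). Hsp90b1 and its only circle, ciRNA1154, are the same reads and stood apart together: sham 2 at 55.0 RPM, which is 1 read where the other sham libraries had none, and sleeve 3 at 539 RPM, which is 10 reads. A group of mostly 0 values meets this criterion with 1 read.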

How the results depend on the processing

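Most member results had few reads: 33 of 37 junctions had under 20, relapse had 2 libraries, and 1 read was worth up to 55.0 RPM. Of 441 member values recomputed under alternatives, 415 kept direction and side of the threshold, none gained a call, and 26 in 8 of 24 results changed sign. All 26 lay on uncalled values, and the cause was not tested. The 441 values cover only member hosts and junctions that passed the filter on low counts. Hsp90b1, ciRNA1154, ciRNA449 and circRNA3565 did not pass it and are not among them. Scaling by the authors' SRPBM constant moved the median of all hosts by 0.14, 0.10 and 0.25 (sleeve against sham, relapse against sleeve, relapse against sham), and turned Canx to 0.26 and circRNA325 to 0.31 in relapse against sham, Pdia3 to 0.028 and circRNA324 to 0.17 in relapse against sleeve, and Atf6 to 0.0064 in sleeve against sham. With limma-voom, Canx was 0.0151 and circRNA325 0.067 in relapse against sham, and circRNA324 was 0.066 in relapse against sleeve. Pdia3 in sleeve against sham was 2.16 when no identifier was joined and 2.17 when identifier entries were left out, against 1.32 with its identifier entry joined. Atf6 in sleeve against sham was −0.56 and −0.55 in these 2 settings, against −0.20 with its identifier entry joined. In relapse against sleeve Atf6 was −0.40 and −0.42, against −0.75. With no filter, circRNA324 was 0.0061 in relapse against sleeve. CircRNA325 in relapse against sham was 0.044 with no filter and 0.0024 with the 2 groups fitted alone.

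With 1 library left out at a time, these log2 fold changes took both signs. In relapse against sham, Canx ran from −0.20 to 0.086, Pdia3 from −4.14 to 1.94 and circRNA325 from −0.48 to 0.28. In relapse against sleeve, Pdia3 ran from −5.42 to 0.65, circRNA324 from −0.60 to 0.26 and circRNA325 from −0.32 to 0.44. In sleeve against sham, circRNA325 ran from −0.34 to 0.030. The −4.14 and −5.42 of Pdia3 are fits to relapse 1 alone, which had no Pdia3 read, and are not measured folds: its floor was 162 RPM, beside pooled levels of 91.7 RPM in sham and 242 RPM in sleeve. Ero1b kept its sign, from −4.43 to −1.82 against sleeve and −4.71 to −2.11 against sham, where the lower ends are likewise fits to 0 reads. Where relapse kept 1 library, that library was assumed to vary like the other groups. Pdia3 and Ero1b failed the filter, and gave no value, at a minimum count of 10; so did Ero1b with the 2 groups alone or without sham 1 or sleeve 2, and Pdia3 with either group and sham alone.

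No pairing by replicate number was seen: deviations of same-numbered libraries from their group means correlated at −0.0915 to 0.0377. Many tested hosts had few reads, so these values cannot exclude pairing. A replicate block gave Pdia3 −0.021 and circRNA325 0.13 in relapse against sham, and circRNA326 0.97 in relapse against sleeve. With the block 1, 1 and 3 hosts and 1, 2 and 1 junctions were called in sleeve against sham, relapse against sleeve and relapse against sham; none was a member.

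Counts over all hosts were small and moved. The 2 of sleeve against sham became 0 with DESeq2, limma-voom, SRPBM scaling, names as written, a minimum count of 10 or the 2 groups alone, 1 with symbol entries alone, and 0 to 2 with a library left out. The 1 of relapse against sleeve became 0 with those 6 settings and with symbol entries alone, 2 with no filter, and 0 to 2 with a library left out. The 3 of relapse against sham became 1 with SRPBM scaling, names as written, a minimum count of 10, symbol entries alone or the 2 groups alone, and 1 to 5 with a library left out. The 0 junctions became 2 and 1 with no filter in relapse against sleeve and relapse against sham, and 0 to 9 and 0 to 8 with a library left out.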
